A study of Ovis aries with 6 samples.

Results

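The Notch genes taken here are 4 receptors (NOTCH1, NOTCH2, NOTCH3 and NOTCH4), 4 ligands (JAG1, JAG2, DLL1 and DLL4) and 2 transcriptional targets (HES1 and HEY1), chosen by their exact symbol among the 28394 genes listed for each sheep. Of these 10 genes 9 were found, and JAG2 was not analysed here. All 9 had at least 10 counts in at least 3 sheep, so that none was lost to the filter on low counts. The study compared the skin of Super Merino (SM) sheep, a fine wool breed, with that of Small Tail Han (STH) sheep, a coarse wool breed, using RNA sequencing of 3 sheep of each breed and 1 library per sheep. The skin came from behind the shoulder of ewes that shared a farm and feed. The labels give the age of all 6 sheep as 9 months, whereas the study's methods give a younger age. Values are listed throughout in the order 128, 30034 and 30126 for SM animals, then XW3, XW5 and XW8 for STH animals.

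Notch signalling passes between neighbouring cells that touch. A Jagged or Delta-like ligand on one cell binds a Notch receptor on the next, ADAM proteases and then gamma-secretase cut the receptor, and its freed intracellular part enters the nucleus, where it joins the DNA-binding protein RBPJ and Mastermind coactivators and switches on repressor genes of the HES and HEY families. In skin the pathway is known for driving keratinocytes out of the basal layer and for shaping the hair follicle, and in vessels for directing the branching of endothelium and the maturation of mural cells.

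Total counts ranged from 28870583 to 44645091 per sheep, so that a floor of 3 counts lay between 0.0672 and 0.104 CPM (counts scaled to library size), for counting error only. The 9 Notch genes together had between 33578 and 54975 counts per sheep. Breed differences were tested for 15320 genes with the quasi-likelihood test of edgeR. A call required a Benjamini-Hochberg adjusted p under 0.05 and a change of more than 1.5-fold in either direction. Each log2 fold change is positive where SM was higher, and its standard error is written SE. By this test 0% of the 15320 genes were called, whereas the likelihood ratio test of edgeR called 352 and DESeq2 443. Without adjustment, p was under 0.05 with SM higher in 1104 genes (7.21%) and with STH higher in 1658 (10.8%), a balance that became 1437 and 1402 with upper quartile normalization. Leaving out SM sheep 128 raised the calls to 1163. In SM sheep 30126 the values declined with gene length more than in any other sheep, a difference that bears on the long Notch genes and is given with them. As a check of the tissue, the keratinocyte markers KRT5 and KRT14 had at least 2602 CPM in every sheep, while the 4 melanocyte markers together had between 3.74 and 5.78 CPM, with MLANA and TYRP1 at most 0.331 CPM and DCT at most 4.07 CPM.

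To see which Notch genes the skin expressed most, levels were compared per exon length, as RPKM. HES1, a repressor that is switched on directly by Notch, had the highest level of the 9 genes, with 43.6, 50.5 and 60.2 RPKM in SM and 45.2, 39.3 and 41.9 RPKM in STH animals. JAG1 came next with 32.9 ± 2.51 RPKM (SD, n = 6), and HES1 was above JAG1 in every sheep, by 1.197 to 1.67 times. The receptors NOTCH1, NOTCH2 and NOTCH3 followed closely on each other, with 25.8 ± 3.16, 22.9 ± 2.57 and 21.5 ± 0.901 RPKM (SD, n = 6). JAG1 and NOTCH1 overlapped in level across sheep, although JAG1 was the higher in 6 of 6 sheep when compared within each animal. NOTCH1 was likewise above NOTCH2 in 6 of 6 sheep, by no more than 1.17 times, whereas NOTCH2 was above NOTCH3 in only 4 of 6. NOTCH1 was also above NOTCH3 in 6 of 6 sheep, by between 1.03 and 1.38 times, so that within each animal NOTCH1 led the receptors while NOTCH2 and NOTCH3 had no fixed order.

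The other 4 genes lay well below. HEY1 had 4.47 ± 0.662 RPKM (SD, n = 6), and NOTCH3 was between 4.02 and 6.35 times as high within each sheep. DLL1 had 1.61 ± 0.294, DLL4 1.495 ± 0.594 and NOTCH4 1.02 ± 0.0937 RPKM (SD, n = 6). DLL1 and DLL4 changed places between sheep, with DLL1 the higher in 3 of 6, and DLL4 was above NOTCH4 in 5 of 6. DLL1 was above NOTCH4 in 6 of 6 sheep without overlap, and HEY1 above DLL1 likewise, so that only the place of DLL4 among these genes did not hold beyond the spread between sheep.

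**Figure D1:**
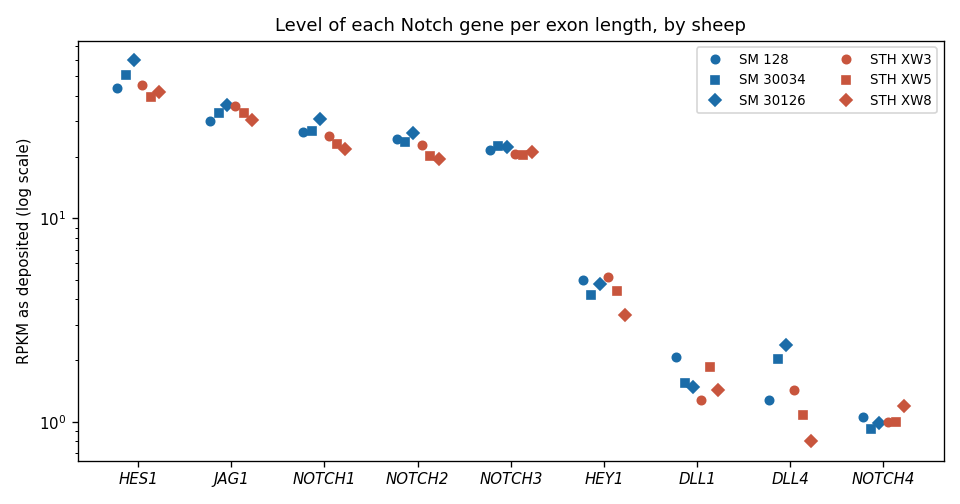
RPKM of the 9 Notch genes on a log scale, 1 point for each sheep, with SM sheep in blue and STH sheep in red. HES1, JAG1 and NOTCH1 to NOTCH3 lie between 19.5 and 60.2 RPKM, whereas HEY1, DLL1, DLL4 and NOTCH4 lie between 0.800 and 5.15 RPKM.

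Within each sheep the make-up of the receptors was nearly constant. NOTCH1 took between 34.3% and 38.3% of the summed receptor RPKM, NOTCH2 between 30.7% and 33.1%, NOTCH3 between 27.8% and 33.2% and NOTCH4 between 1.23% and 1.87%. Among the 3 ligands measured, JAG1 took between 89.97% and 93.2% of the summed RPKM. These shares leave out JAG2, so they describe the measured ligands only.

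In the comparison of the breeds none of the 9 Notch genes was called, nor was any other gene tested. The adjusted p of the 9 lay between 0.260 and 0.881. For 7 of the 9 the whole 95% interval of the difference lay within 1.5-fold either way, which was so for 25.4% of all genes tested. The 2 exceptions were the Delta-like ligands DLL1 and DLL4, which had the fewest counts of the 9, 1429 and 1683 over the 6 sheep. The share over all genes was not matched to the counts of the 9. With the trend on gene length removed the interval lay within 1.5-fold for 4 of the 9, NOTCH4, JAG1, HES1 and HEY1, beside 25.3% of all genes. The median log2 fold change over the 9 genes was 0.12, beside 0.018 over all genes tested, and 7 of 9 were positive against 51.4% of all genes. One of the 9, DLL4, had an unadjusted p under 0.05, which 18% of all genes had. In 3 of the 9 (33.3%), NOTCH1, NOTCH2 and NOTCH3, the breeds did not overlap, beside 25.6% of all genes in either direction. In these 3 every SM animal exceeded every STH animal, as was so in 12.3% of all genes. The reverse was so in none of the 9, beside 13.3% of all genes. With 3 sheep against 3, such a separation gives an exact two-sided permutation p of 0.1, the smallest that this design allows.

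**Figure D2:**
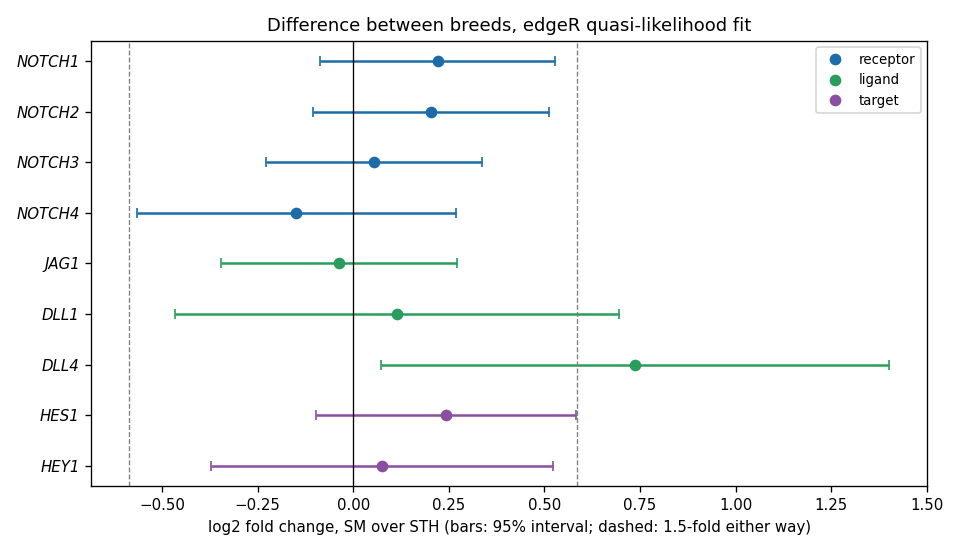
Log2 fold change of each Notch gene, SM over STH, from edgeR's quasi-likelihood fit, with bars for the 95% interval and dashed lines at 1.5-fold either way. The intervals of DLL1 and DLL4 cross a dashed line, and that of DLL4, from 0.073 to 1.40, is the only one that leaves out 0. The signs of NOTCH4, JAG1, DLL1 and HEY1 changed under some alternatives.

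Of the receptors, NOTCH1 is the main one of the suprabasal epidermis, located at 2847499 to 2872512 on chromosome 3 (Oar_v4.0, as are all positions given). Its TMM-normalized CPM was 288, 278 and 321 in SM and 268, 255 and 239 in STH animals. All SM sheep were above all STH sheep, with a gap of 3.85% between the lowest SM and the highest STH sheep. SM animals averaged 296 ± 22.3 CPM (SD, n = 3) against 254 ± 14.4 CPM (SD, n = 3), a log2 fold change of 0.22 (SE 0.14, adjusted p = 0.374, edgeR). The 95% interval, from -0.087 to 0.53, leaves out a difference of 1.5-fold or more, but with the length trend removed it ran from 0.064 to 0.89 and did not.

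NOTCH2, on chromosome 1 from 96281984 to 96465321, had the most counts of the 9 genes. Its values were 390, 361 and 404 CPM in SM and 359, 329 and 316 CPM in STH animals. The breeds again did not overlap, but SM sheep 30034 was above STH sheep XW3 by only 0.596%. The log2 fold change was 0.20 (SE 0.14, adjusted p = 0.405). A listed gene on the opposite strand, LOC106990323, overlaps NOTCH2 and had 0 counts in all 6 sheep. The other 8 Notch genes overlapped no other listed gene.

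NOTCH3, the receptor of vascular mural cells, lies on chromosome 5 from 7654521 to 7691765. It hardly varied, with 224, 223 and 222 CPM in SM and 209, 214 and 221 CPM in STH animals. Its coefficient of variation over the 6 sheep was 2.72%, and only 0.0783% of all genes tested had a smaller one. With the trend on gene length removed, which is described with the transcript lengths, this coefficient was 15.4% and 29.4% of genes had a smaller one. The log2 fold change was 0.055 (SE 0.12, adjusted p = 0.812), and the gap of 0.413% that kept the breeds apart closed with RLE normalization. Of the 5 mural markers RGS5 was higher in STH sheep and PDGFRB higher in SM sheep at an unadjusted p under 0.05, which 18% of all genes had. The summed level of the 5 ranged from 192 to 247 CPM in SM and from 224 to 285 CPM in STH sheep. The part of mural cell number in the level of NOTCH3 was not tested.

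NOTCH4, the receptor found mainly in endothelium, lies on chromosome 20 from 26213660 to 26239565 and had between 314 and 447 counts per sheep. Its values were 11.04, 9.17 and 9.91 CPM in SM and 10.2, 10.6 and 12.6 CPM in STH animals. The breeds overlapped, and the log2 fold change of -0.15 (SE 0.18, adjusted p = 0.645) turned to 0.085 with the trend on gene length removed.

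JAG1, the Jagged ligand of the follicle and of vessel walls, lies on chromosome 13 from 3404819 to 3439626. It had 237, 248 and 274 CPM in SM and 274, 263 and 242 CPM in STH animals. The 2 breeds covered almost the same range, and the log2 fold change was -0.038 (SE 0.14, adjusted p = 0.881), a value whose sign changed under 3 of 15 alternatives. Its 95% interval ran from -0.35 to 0.27.

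DLL1, a Delta-like ligand of basal keratinocytes, lies on chromosome 8 from 90405881 to 90416270 and had between 159 and 327 counts per sheep. Its values were 8.53, 6.07 and 5.89 CPM in SM and 5.16, 7.75 and 5.96 CPM in STH animals. The highest SM sheep, 128, was above every STH sheep and the lowest STH sheep, XW3, was below every SM sheep, but the breeds overlapped between them. The log2 fold change was 0.12 (SE 0.25, adjusted p = 0.808), and it was -0.075 without SM sheep 128 and -0.0088 without STH sheep XW3. The interval, from -0.46 to 0.69, does not leave out a difference of 1.5-fold in favour of SM sheep.

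DLL4, the Delta-like ligand of endothelial tip cells and arteries, lies on chromosome 7 from 33459859 to 33469101 and had the largest difference of the 9 genes. It had 6.51, 9.87 and 11.7 CPM in SM and 7.13, 5.59 and 4.14 CPM in STH animals, from between 125 and 459 counts per sheep. SM sheep 30034 and 30126 were above every STH sheep, but SM sheep 128 was below STH sheep XW3. SM animals averaged 9.36 ± 2.63 CPM (SD, n = 3) against 5.62 ± 1.498 CPM (SD, n = 3), a log2 fold change of 0.74 (SE 0.29, unadjusted p = 0.0335, adjusted p = 0.260, edgeR). As a ratio this is 1.67-fold, with a 95% interval from 1.05 to 2.64, and 12.5% of all genes had a larger absolute change. It stayed positive as each sheep was left out, from 0.56 without SM sheep 30126 or without STH sheep XW8 to 0.94 without SM sheep 128 or without STH sheep XW3.

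**Figure D3:**
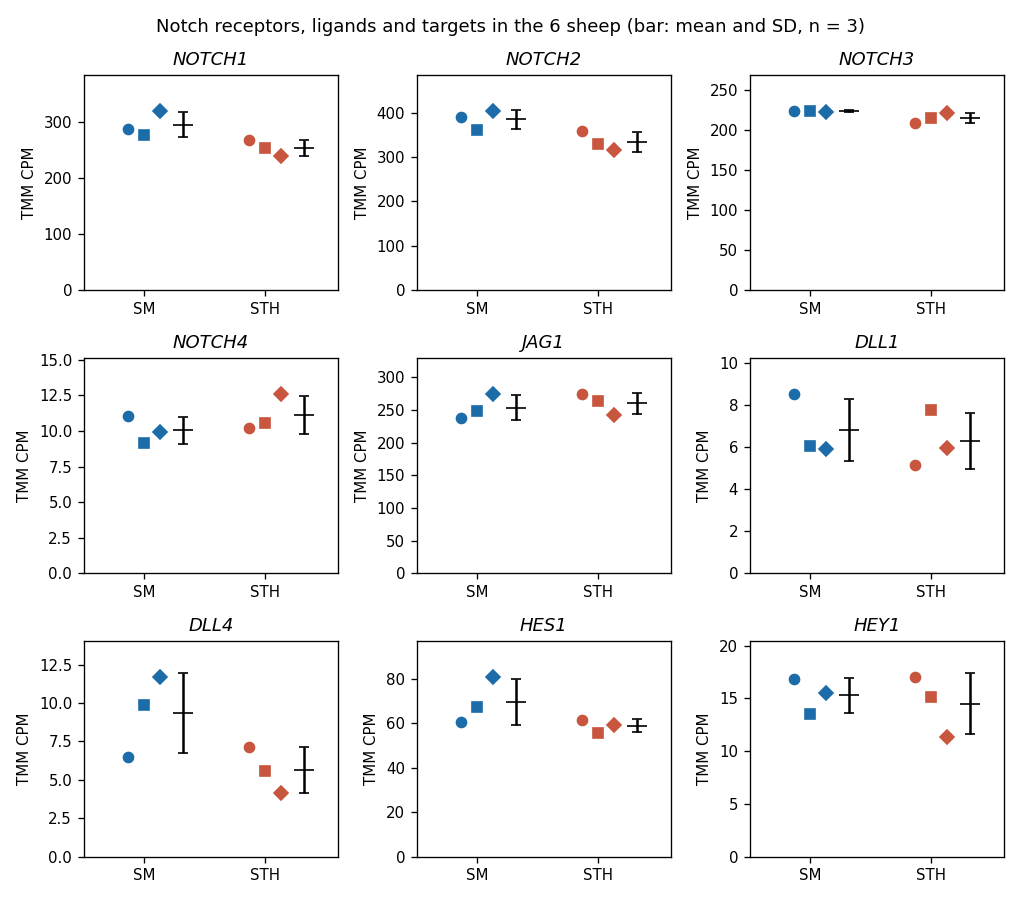
TMM-normalized CPM of each Notch gene in the 3 SM sheep (blue) and 3 STH sheep (red), with the mean and SD of each breed in black and every axis starting at 0. The points of NOTCH3 lie between 209 and 224 CPM in all 6 sheep, while those of DLL4 run from 4.14 to 11.7 CPM.

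Because DLL4 is an endothelial gene, its values were set beside 7 endothelial markers. In bulk skin, fewer cells of a type and less RNA per cell cannot be told apart. The summed level of the 7 markers ranged from 555 to 700.1 CPM in SM and from 363 to 583 CPM in STH sheep. Of the 7, 6 had a positive log2 fold change, beside 51.4% of all genes. CDH5, TIE1 and VWF were higher in SM sheep and EMCN higher in STH sheep at an unadjusted p under 0.05, which 18% of all genes had. None of the 7 was at 0. In the 2 sheep where DLL4 was highest, 30034 and 30126, the endothelial sum was also highest, and in XW8 both were lowest. Expressed as a percentage of the endothelial sum, DLL4 was 1.17%, 1.41% and 1.74% in SM and 1.22%, 1.21% and 1.14% in STH animals. The breeds overlapped on this scale, as they already did in the CPM of DLL4 itself. The means were 1.44 ± 0.283% for SM (SD, n = 3) and 1.19 ± 0.0459% for STH (SD, n = 3) (exact two-sided permutation test, p = 0.3). The part of endothelial RNA in the difference of DLL4 was not tested.

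Within each sheep the balance of JAG1 to DLL4 separated the breeds. JAG1 differed little between them, with a log2 fold change of -0.038, so this ratio largely restates the difference in DLL4. The RPKM of JAG1 was 23.6, 16.3 and 15.2 times that of DLL4 in SM and 24.9, 30.5 and 37.96 times in STH animals, so that all STH sheep were above all SM sheep. SM sheep 128 and STH sheep XW3 were close to each other. SM animals averaged 18.3 ± 4.55 (SD, n = 3) against 31.1 ± 6.56 (SD, n = 3), with an exact two-sided permutation p of 0.1 and an adjusted p of 0.309 over the 17 shares and ratios compared. Of these 17 the only others without overlap were the shares of JAG1 and of DLL4 in the ligand sum, which rest on the same genes.

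**Figure D4:**
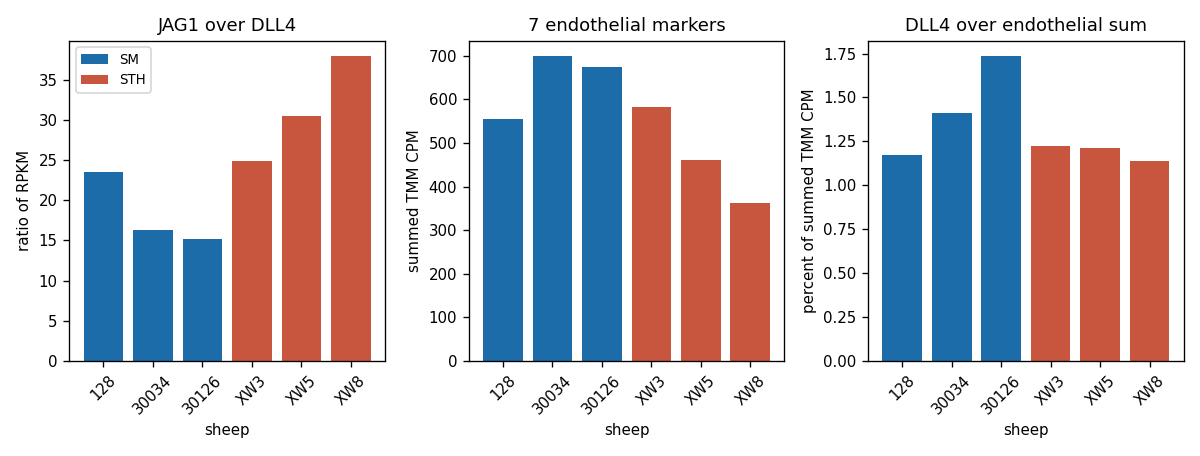
Bars for each sheep, SM in blue and STH in red, of the RPKM ratio of JAG1 to DLL4, the summed CPM of 7 endothelial markers, and DLL4 as a percentage of that sum. The ratio runs from 15.2 to 23.6 in SM sheep and from 24.9 to 37.96 in STH sheep. The percentage overlaps between the breeds, as does the CPM of DLL4 itself.

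Of the targets, HES1, on chromosome 1 from 191456427 to 191458414, had 60.8, 67.4 and 80.9 CPM in SM and 61.7, 55.8 and 59.2 CPM in STH animals. SM sheep 30034 and 30126 were above all STH sheep and 128 was within their range. The log2 fold change was 0.24 (SE 0.15, adjusted p = 0.375), with a 95% interval from -0.096 to 0.58. The ratio of HES1 to NOTCH1 RPKM within a sheep was 1.82 ± 0.166 for SM (SD, n = 3) and 1.80 ± 0.110 for STH (SD, n = 3), with a two-sided exact permutation p of 0.9.

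HEY1, a related repressor known from vessels, lies on chromosome 9 from 55686458 to 55690363. It had 16.9, 13.6 and 15.5 CPM in SM and 17.0, 15.1 and 11.4 CPM in STH animals. The breeds overlapped, and the log2 fold change of 0.076 (SE 0.20, adjusted p = 0.837) became -0.071 without STH sheep XW8.

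The length of the transcripts bears on these values, since most Notch genes are long. The exon length of NOTCH2 was 3.56 times that of the median gene and longer than that of 95.5% of the genes tested, and NOTCH1, NOTCH3 and NOTCH4 were between 2.30 and 2.41 times the median. HES1, at 0.311 times the median, was short. For a gene of the length of NOTCH2 the trend of all genes on length lowered the log2 CPM of SM sheep 30126 by 0.43 on average, while it raised that of STH sheep XW5 by 0.28. At the length of HES1 the same trend was 0.21 in SM sheep 30126 and -0.11 in STH sheep XW5. With each sheep's trend removed, the log2 fold changes became 0.48 for NOTCH1 (unadjusted p = 0.0277, adjusted p = 0.223), 0.52 for NOTCH2 (unadjusted p = 0.0205, adjusted p = 0.213), 0.29 for NOTCH3 (adjusted p = 0.301), 0.15 for JAG1 (adjusted p = 0.619) and 0.11 for HES1 (adjusted p = 0.617), by the same test in edgeR. None of the 9 was called, and 3 of the 9, NOTCH1, NOTCH2 and DLL4, had an unadjusted p under 0.05, beside 19.7% of all genes. What the trend comes from was not tested.

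**Figure D5:**
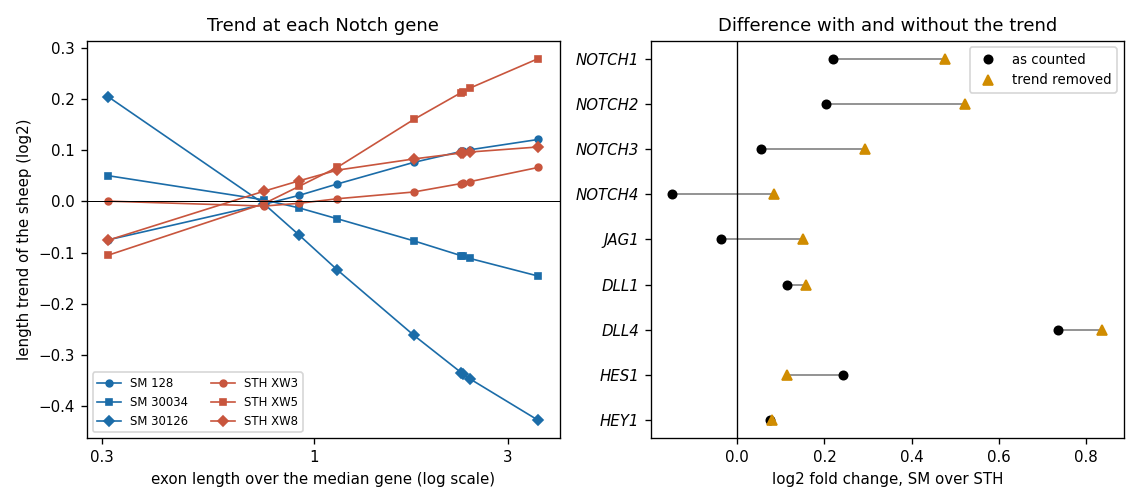
Left, the trend of log2 CPM on exon length in each sheep, read at the length of the 9 Notch genes; right, the log2 fold change of each gene as counted (black) and with the trend removed (orange). SM sheep 30126 falls to -0.43 at NOTCH2, the longest of the 9, and removing the trend moves NOTCH1, NOTCH2, NOTCH3, NOTCH4 and JAG1 towards SM sheep and turns the sign of NOTCH4 and JAG1.

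A wider list of 57 pathway genes was also read, of which 55 were found and 52 had enough counts for the test. None was called, nor was any other gene tested, and 7 of the 52, or 13.5%, had an unadjusted p under 0.05, which 18% of all genes had. Their median log2 fold change was 0.027. Of the 52, 27 were positive and 25 negative.

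Among the 9 genes that cut the receptor, ADAM10, the protease of the first cut after ligand binding, averaged 83.3 ± 19.6 CPM for SM (SD, n = 3) and 115 ± 12.02 CPM for STH (SD, n = 3), with a log2 fold change of -0.47 (SE 0.19, adjusted p = 0.267). NCSTN, the gamma-secretase subunit that docks the substrate, had 150.04 ± 21.9 (SD, n = 3) and 118 ± 3.59 CPM (SD, n = 3), a log2 fold change of 0.35 (SE 0.15, adjusted p = 0.270). Both were separated by breed, in opposite directions. They were the only 2 of the 9 without overlap, or 22.2%, beside 25.6% of all genes.

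Of the 8 genes of the nuclear complex, RBPJ, which binds the DNA, had 109, 96.9 and 71.6 CPM in SM and 119, 128 and 121 CPM in STH animals. All STH sheep were above all SM sheep, and the log2 fold change was -0.41 (SE 0.17, adjusted p = 0.270, edgeR). With the length trend removed RBPJ was at -0.14 and ADAM10 at -0.25, and neither kept an unadjusted p under 0.05. Sheep 30126 was the lowest of the 6 in both genes. The coactivators MAML1, EP300 and KAT2B lay between -0.010 and 0.064, and the corepressors NCOR1 and HDAC1 had 0.011 and -0.018. No corepressor of the 8 had an unadjusted p under 0.05.

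Of the 13 genes of ligand endocytosis and receptor turnover, the ligases NEURL1B and ITCH had differences of opposite sign. NEURL1B, a ubiquitin ligase of Notch ligands, averaged 73.7 ± 8.23 CPM for SM (SD, n = 3) and 51.5 ± 9.97 CPM for STH (SD, n = 3), with a log2 fold change of 0.52 (SE 0.17, adjusted p = 0.247). ITCH, a ligase that marks Notch receptors for degradation, had 62.9 ± 23.2 (SD, n = 3) and 95.8 ± 9.85 CPM (SD, n = 3), a log2 fold change of -0.61 (SE 0.26, adjusted p = 0.270). Without SM sheep 128 ITCH passed both thresholds, at -0.89 with an adjusted p of 0.0425, as did 7.59% of all genes in that setting. SM sheep 30126 had the lowest level of ITCH, at 39.3 CPM. Without it the log2 fold change was -0.34 (adjusted p = 0.469), and with the length trend removed it was -0.45. Of the other 6 genes at an unadjusted p under 0.05 none passed both thresholds under the alternatives run. MIB1, the main ligase of Jagged and Delta-like ligands, had -0.37 (adjusted p = 0.338), and the breeds overlapped.

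The 5 glycosyltransferases that decorate the receptor held 4 genes with breeds that did not overlap, but none with an unadjusted p under 0.05. LFNG, a Fringe enzyme that tunes the choice between Delta-like and Jagged ligands, had 25.2, 22.8 and 24.0 CPM in SM and 15.3, 18.5 and 21.9 CPM in STH animals, with a log2 fold change of 0.37 (SE 0.17, adjusted p = 0.287). RFNG and POFUT1 were likewise separated, with 0.26 and 0.20, and POGLUT1 in the opposite direction, with -0.36. Over all 52 pathway genes the breeds did not overlap in 34.6%, beside 25.6% of all genes. The 3 further ligands, DLL3, DLK1 and DLK2, had at most 4.94 CPM and none had an unadjusted p under 0.05.

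Among the other targets, HEYL, a relative of HEY1 known from mural cells, was the most highly expressed, with 81.0, 94.9 and 115.5 CPM in SM and 80.5, 59.3 and 76.4 CPM in STH animals. The breeds did not overlap, by a small gap between 128 and XW3, and the log2 fold change was 0.43 (SE 0.18, adjusted p = 0.270). HES5 was near the floor, with 20, 10 and 18 counts in SM and 2, 2 and 6 counts in STH animals. From the summed counts, 48 against 10, the ratio was 4.32 with an exact 95% counting interval from 2.16 to 9.58 that leaves out the spread between animals, and the log2 fold change was 2.10 (SE 0.78, adjusted p = 0.255). HES2 and HEY2 had -0.24 and -0.43, with adjusted p of 0.472 and 0.311. Of the 6 other targets tested, 3 had breeds that did not overlap, beside 25.6% of all genes. In HEYL and HES5 SM sheep were the higher, and in HEY2 STH sheep were. HES3 and HELT did not reach 10 counts in 3 sheep, and HES4 is listed with 0 counts in every sheep.

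For the other cell types that skin holds, the marker lists were read in the same fit. No marker was called, but neither was any other of the 15320 genes tested. The study's own edgeR list of breed differences includes KRT1, KRT10, MYH11, RGS5 and ACTA1, each higher in STH sheep. At an unadjusted p under 0.05, 4 of 6 keratinocyte and 3 of 4 smooth muscle markers were higher in STH sheep, and of 5 hair follicle markers FOXN1 was higher in SM and KRT27 higher in STH sheep. Over all genes tested, 10.8% were higher in STH and 7.21% higher in SM sheep at that level. The summed keratinocyte level ranged from 13698 to 15985 CPM in SM and from 16225 to 24239 CPM in STH sheep, so that the breeds did not overlap and STH was higher, the reverse of NOTCH1 and NOTCH2. The part of keratinocyte number in those receptors was not tested. In the fibroblast list none of 5 had an unadjusted p under 0.05, and in the immune list CD3E, of 4 genes, was higher in SM sheep. Of 2 adipocyte and 2 melanocyte markers with enough counts none had an unadjusted p under 0.05, and of 3 skeletal muscle markers ACTA1 was higher in STH sheep.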

How the data were processed

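The 6 libraries, 3 of each breed, hold skin RNA of single animals. Reads were checked with FastQC and mapped by the authors in CLC Genomics Workbench on Oar_v4.0, giving a table for each animal. The deposited total count is a whole number per gene without normalization, and no strand setting is given in the sources used here. The RPKM values deposited by the authors are per exon length and served for levels between genes. TPM, which the authors rescaled from RPKM, served for the order of genes only. A score that the authors call CPM was not used. In 4291 genes an RPKM above 0 goes with 0 counts in all 6 sheep.

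Samples were assigned by the strain label. A gene entered the test when 3 or more sheep had 10 or more counts; the test was run with edgeR 4.0.16 in R 4.3.3 (TMM, quasi-likelihood test, breed as the only term, Benjamini-Hochberg adjustment). The standard error is the log2 fold change over the square root of F, and 95% intervals use the t distribution of that fit. Exon length was read from count over RPKM, and the length trend was a loess fit with span 0.5. Nothing says that the sheep were unrelated. The edgeR p-values and standard errors rest on the spread between sheep, which the fit draws for each gene towards that of other genes. They can therefore exceed what a steady gene's own spread would give, as for NOTCH3. The tests were also run on counts simulated with planted changes. Those counts held no trend on gene length, so the run does not bear on how that trend affects the calls.

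The members and lists were chosen with earlier results of these data known. All members are named, and other pathway genes at an unadjusted p under 0.05 or where needed beside a member. The marker lists cover keratinocyte, hair follicle, endothelial, mural, smooth muscle, fibroblast, adipocyte, immune, melanocyte and skeletal muscle genes. Symbols were matched by name, or for HES4, KRT14 and MYH2 by identifier through the name table of ARS-UI_Ramb_v3.0. Motif searches were not run, since no sequence was used here. Alternatives were DESeq2 1.42.0, the likelihood ratio test, RLE and upper quartile normalization, other filters, the length trend removed and each sheep left out, and, added after seeing the data, the newer dispersion estimate of edgeR and limma-voom (limma 3.58.1).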

Additional observations from a re-analysis of the deposited data

Results flagged for a closer look

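HES4, a target of Notch of the same family as HES1, is listed with 0 counts in every sheep but has an RPKM above 0 in 6 of 6, which puts it outside every test on counts. The mean over the 6 sheep was 6.25 RPKM, 6.54 ± 0.705 for SM (SD, n = 3) and 5.96 ± 1.98 for STH (SD, n = 3), and the breeds overlapped. The table name of this gene is LOC105609730, and it was paired with HES4 by its identifier. Which reads enter the RPKM but not the count was not tested. With 3 sheep per breed no sheep was examined as an outlier.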

How the results depend on the processing

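None of the 9 Notch genes was called under any of the 15 alternatives, and the smallest adjusted p was 0.0688, for DLL4 without SM sheep 128. The direction was kept in 128 of 135 values. With the length trend removed NOTCH4 became 0.085 and JAG1 0.15. With single sheep left out, JAG1 lay between -0.086 and 0.0071, DLL1 between -0.075 and 0.30, and HEY1 between -0.071 and 0.21. Over all genes, the calls rose from 0 to 443 with DESeq2, 352 with the likelihood ratio test, 8 with the length trend removed, 2 without a filter, 2 with the newer dispersion estimate and 5 at an adjusted p under 0.1 alone, and with single sheep left out they ranged from 0 to 1163, the highest without SM sheep 128. The cause was not tested. In SM sheep alone 2 genes, DLL1 and DLL4, changed places in the order of levels. Notch genes without overlap numbered 3, but 2 with RLE and 4 with upper quartile normalization or the length trend removed, where HES1 was the fourth. No paired analysis was possible because the labels name individual animals and share no number across breeds. At this depth and number of sheep the 95% intervals of DLL1 and DLL4 reached beyond 1.5-fold.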
